A study of Mus musculus with 6 samples.

Results

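The megakaryocyte and platelet genes followed here were Vwf, Pf4, Itga2b, Itgb3, Gp1bb, Gp9, Gp6, Selp, Ppbp and Treml1, read in sorted long-term haematopoietic stem cells (LT-HSCs). They were picked by symbol as lineage genes that mark platelet-biased stem cells, and all 10 were found among the 23235 genes of the deposited table. The cells came from bone marrow of C57BL/6 mice aged 2 months, either Hmces knockout (3 libraries) or wild type (WT, 3 libraries). HMCES is a protein that shields abasic sites in single-stranded DNA. Each library was made by Smart-seq2, a full-length cDNA amplification method, from 1500 sorted cells. The titles of all 6 libraries carry the term 13bp, which the sources used here do not explain. The sources also do not give the nature of the knockout allele, the antibody panel of the sort or any pooling of mice. The design text speaks of duplicates, whereas the labels list 3 libraries per genotype. Separate mice are not stated for the libraries, so a p-value here reflects the spread between libraries alone, and that spread may be technical.

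Megakaryocytes are the marrow cells that shed platelets, and they arise from stem cells under the cytokine thrombopoietin. In the mouse, a fraction of stem cells already carries platelet-lineage transcripts, with Vwf and the integrin gene Itga2b (CD41) as common marks, and such cells give rise preferentially to platelets. The genes followed here encode adhesion receptors of the platelet surface, their ligand von Willebrand factor, and proteins that platelets store in alpha granules and release or expose on activation.

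Levels are FPKM, fragments scaled to transcript length and library size, so they can be compared between genes. Depth was estimated from the steps of low values as 9300000 to 11200000 fragments in knockout libraries and 9500000 to 13900000 in WT libraries. Hmces, listed as 8430410A17Rik, had 8.95, 0.222 and 6.95 FPKM in knockout libraries, against 39.5, 45.4 and 41.0 FPKM in WT libraries, in the direction of the labels (log2 fold change of FPKM + 1 -3.23, limma adjusted p = 0.289). Knockout replicate 2 stood apart from the rest, with a score of 67.0 on the first principal component. The other libraries scored -33.6 to 10.1, so results are also given without knockout replicate 2. That library also had the least Hmces, so fits without it rest on the knockout libraries that kept 8.95 and 6.95 FPKM. The stem cell markers Kit and Ly6a were read at 101 to 141 and 257 to 353 FPKM in knockout libraries and at 115 to 120 and 217 to 256 FPKM in WT libraries. Of 12 stem cell markers 10 passed the filter, all but Fgd5 and Hoxb5. The summed level of the 12 was 621 to 664 FPKM in knockout and 545 to 588 FPKM in WT libraries, with Ly6a as its largest part. The median log2 fold change of FPKM + 1 of the 10 was -0.02, with 5 positive and 5 negative. Slamf1 (CD150) had 1.39 to 3.62 FPKM in knockout and 2.2 to 5.08 FPKM in WT libraries, Procr had 13.6 to 32.5 FPKM in knockout and 21.1 to 32.4 FPKM in WT libraries, and Meis1 had 122 to 160 FPKM in knockout and 146 to 148 FPKM in WT libraries. Transcripts of 3 surface proteins that are low or absent on mouse LT-HSCs were abundant, with Cd34 at 453 to 496 FPKM, Flt3 at 136 to 151 FPKM and Cd48 at 263 to 307 FPKM in knockout libraries. In WT libraries Cd34 had 468 to 499 FPKM, Flt3 had 121 to 152 FPKM and Cd48 had 145 to 220 FPKM.

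The 10 genes spanned a wide range of levels, and none differed between genotypes past the threshold. Pf4 was by far the most abundant, followed by Itga2b, Gp9 and Treml1 in both genotypes, and the ranges of Pf4, Itga2b, Gp9 and Treml1 did not overlap with one another within a genotype. Below them Gp1bb, Itgb3, Selp, Ppbp and Vwf lay close together, and each overlapped in range with its neighbour in the order. Gp6 was listed at 0 throughout. All but Gp6, 9 genes, passed the filter of a mean of at least 1 FPKM. Of these, 0 were called by limma at an adjusted p under 0.05, a call made for 0.113% of the 11532 genes tested. Over all genes, 0.104% were called higher (12) and 0.00867% lower (1) in knockout cells. At an unadjusted p under 0.05 there was 1, Pf4, where 9.16% of all genes tested reached that level. The groups overlapped for each of the 9, whereas they did not overlap for 15.8% of all genes tested (7.47% with knockout above and 8.34% with knockout below WT). Differences are log2 fold changes of FPKM + 1, knockout minus WT, here and below. They were positive for 3 and negative for 6 of the 9, and their median was -0.14, against -0.01 over all genes tested. In bulk RNA, fewer cells carrying a transcript and less of it per cell cannot be told apart.

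**Figure D1:**
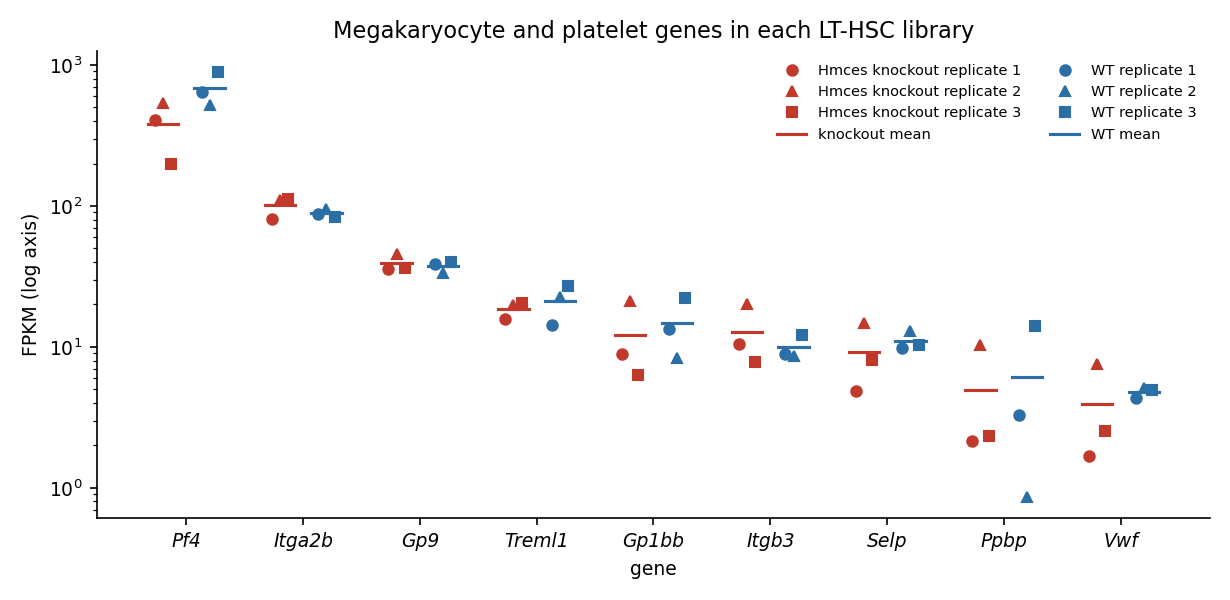
FPKM on a log axis of the 9 genes with reads, ordered by mean, with 1 symbol per library (circle, triangle and square for replicates 1, 2 and 3), red for Hmces knockout and blue for WT, and a line at each group mean. Pf4 reached 892 FPKM and Vwf stayed at or below 7.60 FPKM, and knockout and WT points overlap for each gene.

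Pf4 encodes platelet factor 4, a chemokine stored in alpha granules and its promoter is widely used to drive transgenes in mouse megakaryocytes. It was read at 407, 541 and 199 FPKM in knockout libraries, against 645, 521 and 892 FPKM in WT libraries. Knockout replicate 3 was the lowest and WT replicate 3 the highest, and the groups overlapped only because knockout replicate 2 lay above WT replicate 2. The mean was 382 ± 172 FPKM in knockout and 686 ± 189 FPKM in WT cells (SD, n = 3 each), a ratio of 0.557. The log2 fold change was -0.92 with a 95% confidence interval from -1.74 to -0.10, and it did not pass after adjustment over all genes (limma adjusted p = 0.512). It was -0.51 without knockout replicate 3 and -1.23 without knockout replicate 2. An estimated 724 to 2353 fragments stood behind the knockout values and 2390 to 4837 behind the WT values. Pf4 made up 50.3% to 71.8% of the summed FPKM of the 10 genes in knockout libraries and 73.6% to 80.6% in WT libraries.

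Ppbp encodes pro-platelet basic protein, the other abundant chemokine of alpha granules, and is the direct neighbour of Pf4 on chromosome 5, with 0 annotated genes between them. It was read at 2.15, 10.4 and 2.32 FPKM in knockout libraries, against 3.28, 0.866 and 14.2 FPKM in WT libraries. A single library per genotype was high, knockout replicate 2 and WT replicate 3, and the WT libraries spanned 16.4-fold. The counts were small, with an estimated 18, 102 and 19 fragments in knockout and 28, 10 and 175 in WT libraries. The log2 fold change was -0.01 with an interval from -1.86 to 1.84 (limma adjusted p = 0.999), so a difference anywhere inside that interval is compatible with these values. The ratio of Pf4 to Ppbp was 189, 52.2 and 85.7 in knockout libraries and 196, 601 and 63.0 in WT libraries.

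The 250 bases before the annotated start of 4 genes are shown because the genes stand at different points of the range, Pf4 and Itga2b at the top, Ppbp next to Pf4 but low, and Gp6 listed at 0. They come from RefSeq on GRCm38.p6 and run 5′ to 3′ on the gene's strand. Capitals mark AGATAA, a core motif of GATA factors, and AGGAAG, a core motif of ETS factors, searched on both strands, so that TTATCT or CTTCCT is a match on the other strand. Both factor families drive megakaryocyte genes. The Pf4 stretch is chr5:90772185-90772434 on the plus strand, the Ppbp stretch chr5:90768268-90768517 on the plus strand, the Itga2b stretch chr11:102469884-102470133 on the minus strand and the Gp6 stretch chr7:4397745-4397994 on the minus strand.
Pf4: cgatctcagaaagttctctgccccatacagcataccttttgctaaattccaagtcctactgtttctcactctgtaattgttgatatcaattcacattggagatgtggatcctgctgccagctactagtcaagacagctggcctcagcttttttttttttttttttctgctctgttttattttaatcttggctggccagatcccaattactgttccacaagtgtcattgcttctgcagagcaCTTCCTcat
Itga2b: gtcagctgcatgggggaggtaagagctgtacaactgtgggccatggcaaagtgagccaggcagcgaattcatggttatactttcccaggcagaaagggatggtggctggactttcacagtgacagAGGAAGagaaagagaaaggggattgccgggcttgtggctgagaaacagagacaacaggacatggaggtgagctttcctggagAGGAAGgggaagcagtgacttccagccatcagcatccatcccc
Ppbp: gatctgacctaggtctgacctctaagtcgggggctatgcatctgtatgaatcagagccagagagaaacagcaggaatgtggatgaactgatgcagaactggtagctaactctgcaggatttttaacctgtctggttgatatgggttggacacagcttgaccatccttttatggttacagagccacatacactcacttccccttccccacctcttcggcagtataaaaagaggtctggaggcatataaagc
Gp6: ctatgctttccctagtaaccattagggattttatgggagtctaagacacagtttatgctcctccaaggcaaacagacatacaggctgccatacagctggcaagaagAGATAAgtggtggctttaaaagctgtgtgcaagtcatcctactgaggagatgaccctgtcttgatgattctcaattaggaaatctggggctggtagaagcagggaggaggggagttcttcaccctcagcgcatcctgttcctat
Pf4 held 1 AGGAAG match, on the other strand, which begins 9 bases before the start, and Itga2b held 2, beginning at 125 and 43 bases. Ppbp held neither motif, and Gp6 held 1 AGATAA match at 144 bases. Of 8 genes with an entry in the promoter table, which left out Vwf and Itgb3, AGGAAG was found in 4 (Pf4, Itga2b, Gp9 and Selp) and AGATAA in 1. Over all 32851 promoter windows of the same length, 29.5% held AGGAAG and 9.99% held AGATAA. No gene held both motifs, and a match describes the letters alone.

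Vwf encodes von Willebrand factor, the large multimeric ligand that tethers platelets to damaged vessel walls and a mark of platelet-biased stem cells in the mouse. It was read at 1.69, 7.60 and 2.54 FPKM in knockout libraries, against 4.34, 5.07 and 4.98 FPKM in WT libraries. Knockout replicate 2 was the highest of the 6 libraries and the other knockout libraries the lowest, while the WT libraries lay close together. The long transcript gave an estimated 139, 734 and 205 fragments in knockout and 357, 574 and 600 in WT libraries. The mean was 3.94 ± 3.19 FPKM in knockout and 4.80 ± 0.397 FPKM in WT cells (SD, n = 3 each). Its log2 fold change was -0.42 (95% interval -1.44 to 0.61, limma adjusted p = 0.798). Without knockout replicate 2 it was -0.91 (interval -1.65 to -0.17, adjusted p = 0.497), and the ratio of means went to 0.440, against 0.821 with all libraries.

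Selp encodes P-selectin, an adhesion molecule held in alpha granule membranes and shown on the surface of activated platelets. It had 4.85, 14.9 and 8.08 FPKM in knockout libraries, against 9.75, 13.0 and 10.3 FPKM in WT libraries. As for Vwf, knockout replicate 2 lay above the WT range and the other knockout libraries lay below it. For Selp the log2 fold change was -0.34 (interval -1.19 to 0.51, limma adjusted p = 0.801), and -0.71 (interval -1.41 to -0.02, adjusted p = 0.552) without knockout replicate 2.

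Treml1 encodes TLT-1, a receptor found in alpha granules of the platelet lineage. It had 15.7, 20.0 and 20.3 FPKM in knockout libraries, against 14.3, 22.5 and 27.1 FPKM in WT libraries. The knockout libraries lay inside the WT range. The difference was -0.14 on the log2 scale (interval -0.74 to 0.45, limma adjusted p = 0.894), and it was 0.05 without WT replicate 3.

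Vwf and Selp are also made by endothelial cells, which a marrow sample can hold. Of 12 endothelial markers, 8 passed the filter and 0 were called by limma, against 0.113% of all genes tested. An unadjusted p under 0.05 was reached by 2, against 9.16% of all genes tested. The defining markers Cdh5 and Kdr were at 0 to 0.340 FPKM and 0.238 to 0.738 FPKM in knockout libraries, against 0 to 0.10 FPKM and 0 to 0.745 FPKM in WT libraries. Cldn5 was listed at 0 in all 3 knockout libraries, against 0.424 to 3.38 FPKM in WT libraries. Plvap had 1.54 to 3.06 FPKM in knockout and 2.44 to 3.81 FPKM in WT libraries. Other markers of the list were higher. Emcn had 16.6 to 32.4 FPKM in knockout and 13.6 to 29.4 FPKM in WT libraries. Tie1 had 16.0 to 24.7 FPKM in knockout and 13.1 to 20.9 FPKM in WT libraries. Robo4 had 4.44 to 8.02 FPKM in knockout and 4.19 to 6.53 FPKM in WT libraries. Pecam1 had 20.1 to 35.7 FPKM in knockout libraries, highest in replicate 2, and 16.4 to 29.6 FPKM in WT libraries. The summed level of the 12 markers was 409 to 426 FPKM in knockout and 355 to 369 FPKM in WT libraries, with most of it in Egfl7 and Esam, which stem cells also express. Esam had 114 to 149 FPKM in knockout and 62.1 to 71.5 FPKM in WT libraries (limma adjusted p = 0.0702). The part of these cells in the Vwf and Selp levels was not tested.

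Gp1bb and Gp9 encode small subunits of the GPIb-IX-V complex, the platelet receptor for von Willebrand factor. Gp9 had 35.5, 45.5 and 36.5 FPKM in knockout libraries, against 38.9, 33.4 and 40.1 FPKM in WT libraries. It was among the steadiest of the genes, with a log2 fold change of 0.06 and an interval from -0.31 to 0.43 (limma adjusted p = 0.937). The sign was negative without knockout replicate 2 (-0.05) and without WT replicate 2 (-0.02). On chromosome 6 it lies close to Hmces, with 5 protein-coding genes annotated between the pair in GRCm38.p6.

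Gp1bb had 8.89, 21.2 and 6.34 FPKM in knockout libraries, against 13.4, 8.36 and 22.3 FPKM in WT libraries. Knockout replicate 2 and WT replicate 3 were high and the others low, as for Ppbp. On the log2 scale the difference was -0.32 (interval -1.41 to 0.77, limma adjusted p = 0.858), and it was 0.02 without knockout replicate 3 or without WT replicate 3. Its level is less certain than the others, since Sept5 lies directly upstream and its transcripts can run into Gp1bb. Sept5 itself had 1.65, 1.65 and 1.49 FPKM in knockout libraries, against 0.592, 0.955 and 0.335 FPKM in WT libraries.

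Gp6 encodes glycoprotein VI, the collagen receptor of platelets, and was listed at 0 FPKM in all 6 libraries. A count of 3 fragments of its shorter annotated coding transcript, of 965 nt, would give 0.350 to 0.419 FPKM at the depth of the knockout libraries and 0.281 to 0.411 FPKM at that of the WT libraries, a limit that covers counting error only. Of 15 housekeeping genes, 0 were listed at 0.

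Itga2b and Itgb3 encode the subunits of the fibrinogen receptor integrin alphaIIb-beta3, which bridges activated platelets. Itga2b (CD41) had 80.6, 110 and 112 FPKM in knockout libraries, against 87.5, 95.4 and 83.6 FPKM in WT libraries. Knockout replicates 2 and 3 lay above the WT range and replicate 1 below it. Its log2 fold change was 0.17 (interval -0.19 to 0.53, limma adjusted p = 0.764), with the narrowest interval of the 9 genes. Itgb3 had 10.4, 20.1 and 7.82 FPKM in knockout libraries, against 8.96, 8.66 and 12.2 FPKM in WT libraries. Knockout replicate 2 was the highest of the 6 and knockout replicate 3 the lowest. Its log2 fold change was 0.25 (interval -0.54 to 1.04, limma adjusted p = 0.845) and became -0.11 without knockout replicate 2. Itga2b exceeded Itgb3 in every library, by 7.72, 5.48 and 14.4 times in knockout and by 9.78, 11.0 and 6.85 times in WT libraries.

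**Figure D2:**
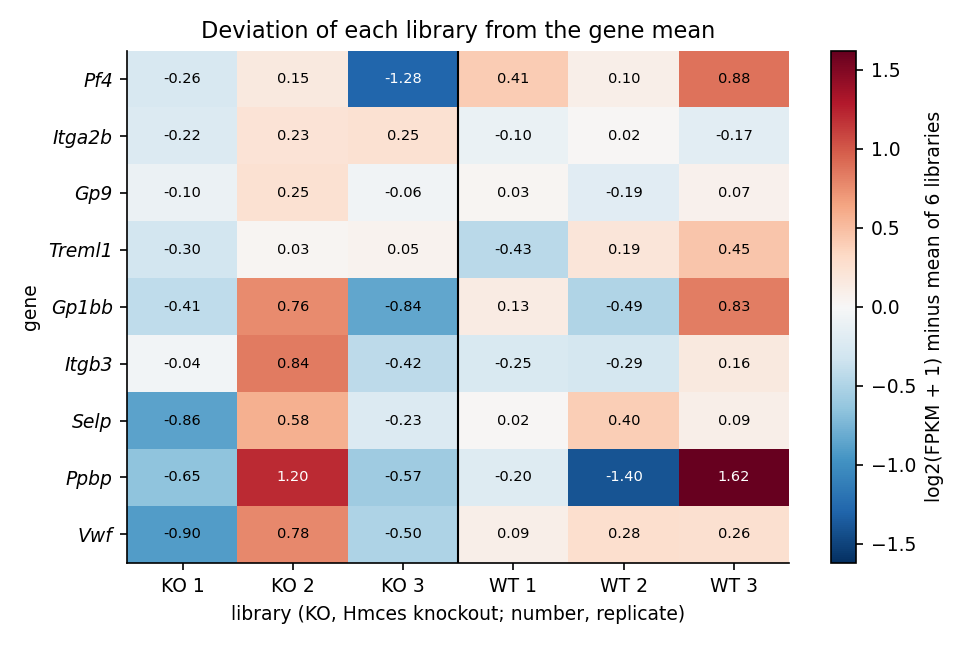
Deviation of each library from the gene's mean over the 6 libraries, in log2(FPKM + 1), with genes in rows and libraries in columns, red for above and blue for below the mean. Knockout replicate 2 is above the mean for all 9 genes, and WT replicate 3 for all but Itga2b.

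Libraries of the same genotype differed from one another in these genes. Among the knockout libraries, replicate 2 was the highest for 7 of the 9 genes, where it was the highest for 37.8% of all genes tested. Among the WT libraries, replicate 3 was the highest for 6 of the 9, against 38.4% of all genes tested. Over all 6 libraries, knockout replicate 2 and WT replicate 3 were each the highest for 4 of the 9, against 23.4% and 18.6% of all genes tested. The residual spread placed Ppbp at the 97.8th percentile of all genes tested, Gp1bb at the 91.5th, Vwf at the 86.8th and Pf4 at the 84.9th, but Itga2b at the 24.6th and Gp9 at the 16.6th. The erythroid genes Epor and Klf1 had 1.78 to 10.7 FPKM and 9.91 to 17.5 FPKM in knockout libraries, against 9.36 to 11.4 FPKM and 5.31 to 18.7 FPKM in WT libraries. Of 12 erythroid markers 10 were tested, with 0 called by limma, against 0.113% of all genes tested, and 0 at an unadjusted p under 0.05, against 9.16%. The summed level of the 12 was 759 to 965 FPKM in knockout and 816 to 926 FPKM in WT libraries. Most of it was Car2, with 696 to 747 FPKM in knockout and 703 to 799 FPKM in WT libraries. The part of the erythroid genes in the spread was not tested.

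Without knockout replicate 2, the remaining knockout libraries lay below every WT library for Vwf, Pf4 and Selp, 3 of the 9 genes, where 14.6% of all genes tested did so. For 0 of the 9 did they lie above every WT library, against 12.5% of all genes tested, and the share in either direction was 27.1%. The log2 fold change was then negative for 8 of the 9, their median was -0.61, and Itga2b alone was positive at 0.10. The median turned positive without knockout replicate 1 (0.0062), without knockout replicate 3 (0.019) and without WT replicate 3 (0.048, with 6 of 9 positive), and it was -0.33 without WT replicate 1 and -0.22 without WT replicate 2. Without knockout replicate 2 still 0 were called (lowest limma adjusted p = 0.438), where 11 of the 11450 genes then tested were. Pf4 had a log2 fold change of -1.23 (interval -2.02 to -0.44). That fit keeps the knockout libraries with 8.95 and 6.95 FPKM of Hmces and leaves out the one with 0.222 FPKM.

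**Figure D3:**
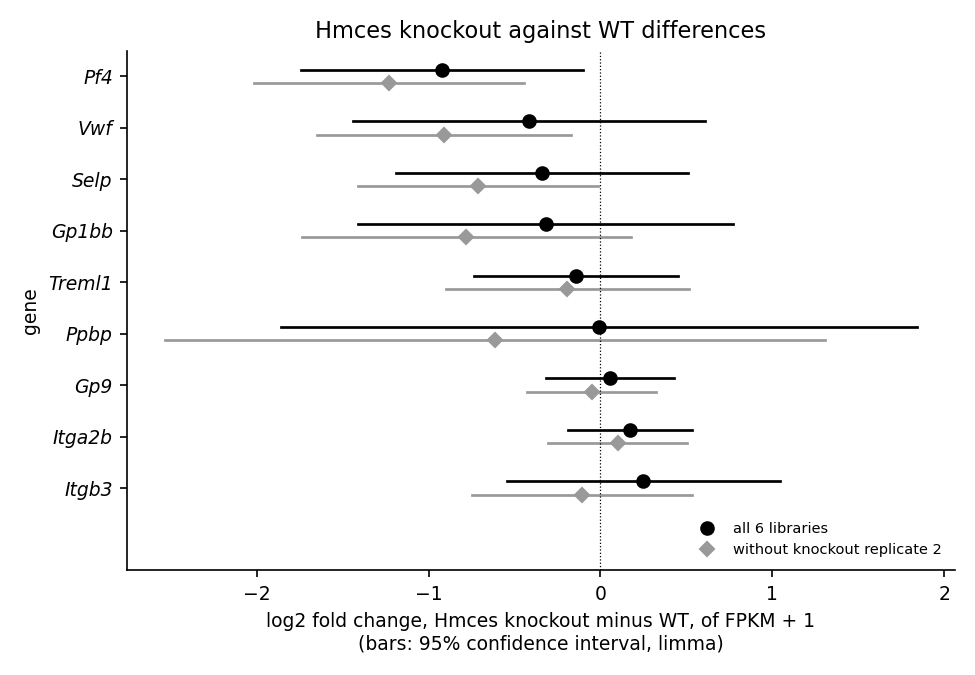
Log2 fold change of FPKM + 1, Hmces knockout minus WT, with 95% confidence intervals from limma, for all 6 libraries (black circles) and without knockout replicate 2 (grey diamonds). Pf4 is the 1 gene whose interval with all libraries leaves out 0, and without knockout replicate 2 the values of Vwf, Selp, Gp1bb and Ppbp lie further below 0.

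The wider platelet programme was read in 75 further genes of 7 lists, all found in the table, 2 of them under earlier symbols (Vipar for Vipas39 and Diap1 for Diaph1). Of these, 63 passed the filter. Called in either direction were 0, against 0.113% of all genes tested, and 3 had an unadjusted p under 0.05, against 9.16%. The groups did not overlap for 7, with 4 above and 3 below WT, against 15.8% of all genes tested. The median log2 fold change was 0.03, with 35 positive and 28 negative.

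Upstream regulators of the lineage gave no called gene, where 0.113% of all genes tested were called. Their levels varied widely from gene to gene. Srf had 0.457 to 2.40 FPKM in knockout and 1.03 to 2.11 FPKM in WT libraries, at the low end. For 12 megakaryocyte transcription factors, all tested and 0 called, the median log2 fold change was 0.03. Gata2, a GATA factor of stem cells and early megakaryocytes, had 93.8, 59.0 and 69.0 FPKM in knockout libraries, against 95.3, 111 and 78.7 FPKM in WT libraries (log2 fold change -0.37, limma adjusted p = 0.621). Gfi1b, a repressor needed for platelet production, had 38.7, 30.6 and 26.7 FPKM in knockout libraries, against 39.0, 32.5 and 38.2 FPKM in WT libraries (-0.20, adjusted p = 0.761). Thrombopoietin signalling had 7 of 8 genes tested and a median of 0.03. Stat5b, which encodes a transcription factor that transmits the cytokine's signal, had 12.7, 26.0 and 19.5 FPKM in knockout libraries, against 21.3, 20.5 and 24.4 FPKM in WT libraries (-0.23, limma adjusted p = 0.810).

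Partners of the receptors and their signalling chain gave no called gene, where 0.113% of all genes tested were called. Their log2 fold changes lay between -1.03 and 0.19. Of 7 receptor partners 5 were tested, with a median of 0.01. Gp5, which encodes the GPV subunit of the GPIb-IX-V complex, had 20.7, 25.7 and 16.4 FPKM in knockout libraries, against 19.0, 21.0 and 30.2 FPKM in WT libraries (log2 fold change -0.15, limma adjusted p = 0.873). Clec1b encodes CLEC-2, the podoplanin receptor of platelets. It was listed at 0, 2.76 and 0 FPKM in knockout libraries, against 2.34, 2.75 and 1.58 FPKM in WT libraries (-1.03, adjusted p = 0.622). For 8 integrin activation genes the median was -0.06. Itgb1, the beta1 integrin subunit, had 59.4, 47.5 and 57.4 FPKM in knockout libraries, all below the 82.2, 64.9 and 67.8 FPKM of WT libraries (-0.38, adjusted p = 0.532). Itga6, a laminin-binding subunit, had 4.91, 1.47 and 5.62 FPKM in knockout libraries, against 6.78, 5.92 and 3.61 FPKM in WT libraries (-0.45, adjusted p = 0.775). For 12 of 14 agonist receptor and signalling genes tested the median was -0.03. The thrombin receptor cofactor F2rl2 had 7.91, 17.5 and 9.10 FPKM in knockout libraries, against 14.2, 16.7 and 22.5 FPKM in WT libraries (-0.64, adjusted p = 0.588). The ADP receptor gene P2ry1 had 9.77, 5.0 and 2.97 FPKM in knockout libraries, against 8.65, 5.01 and 6.4 FPKM in WT libraries (-0.25, adjusted p = 0.875).

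Alpha granule genes other than the 10 had the highest median of the 7 lists, 0.32 over 9 of 14 genes tested, 7 of them positive. Called were 0, against 0.113% of all genes tested. Thbs1, which encodes the adhesive protein thrombospondin-1, had 1.08, 4.28 and 2.14 FPKM in knockout libraries, all above the 1.03, 0.854 and 0.263 FPKM of WT libraries (log2 fold change 0.95, limma adjusted p = 0.564). F13a1, which encodes a subunit of clotting factor XIII and is also a gene of monocytes, had 6.12, 9.74 and 7.61 FPKM in knockout libraries, against 11.9, 0.620 and 1.36 FPKM in WT libraries (1.25, adjusted p = 0.638). Most markers of granulocytes and monocytes differed with genotype in the same libraries. All knockout libraries lay above every WT library for 10 of 12, against 7.47% of all genes tested. The groups overlapped for Lyz2 and for the monocyte marker Csf1r. Csf1r had 3.27 to 7.56 FPKM in knockout and 1.57 to 7.41 FPKM in WT libraries (log2 fold change 0.06, limma adjusted p = 0.987). Called higher were 2 of the 12, against 0.104% of all genes tested. The summed level of the 12 was 19120 to 25520 FPKM in knockout and 6925 to 10660 FPKM in WT libraries. Among them Mpo, the neutrophil myeloperoxidase gene, had 787 to 1476 FPKM in knockout and 119 to 257 FPKM in WT libraries, and the neutrophil protease gene Ctsg had 467 to 625 FPKM in knockout and 25.5 to 106 FPKM in WT libraries. Mpo was called with all libraries (limma adjusted p = 0.0307) but not under 8 of 16 alternatives, among them the fit without knockout replicate 2 (adjusted p = 0.0908). Their part in the levels of the alpha granule genes was not tested.

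Genes of the proplatelet cytoskeleton, used when megakaryocytes extend the processes that become platelets, had 10 of 12 tested and a median of 0.06. Plek, which encodes the platelet protein kinase C substrate pleckstrin and is shared with leukocytes, had 61.9, 62.5 and 69.9 FPKM in knockout libraries, all above the 47.7, 53.2 and 55.7 FPKM of WT libraries (log2 fold change 0.31, limma adjusted p = 0.538). Sdpr (now Cavin2), a caveola-associated protein gene, had 23.8, 26.9 and 12.5 FPKM in knockout libraries, against 20.8, 27.2 and 25.2 FPKM in WT libraries (-0.26, adjusted p = 0.804). The 2 genes of this list below the filter, both of late megakaryocytes, are named after their values were seen. Myl9, a myosin light chain gene, was listed at 0 in every library. Tubb1, the beta-tubulin of platelets, was at 0.348, 0 and 0 FPKM in knockout libraries, against 1.20, 1.26 and 3.03 FPKM in WT libraries, and was not called with no filter on low values (limma adjusted p = 0.486).

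**Figure D4:**
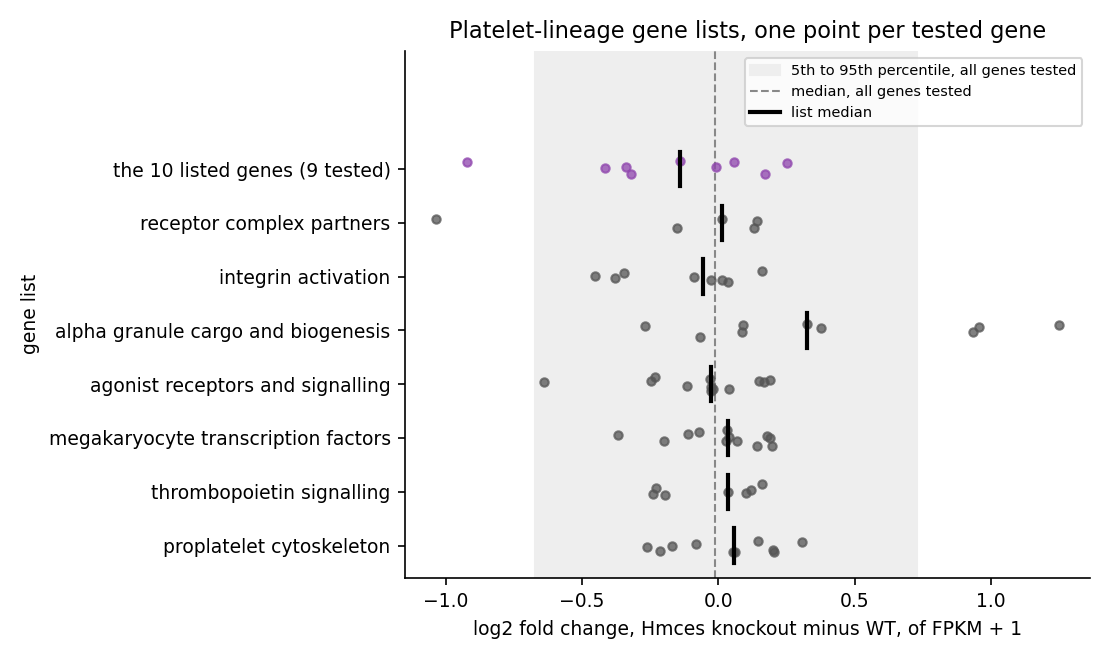
Log2 fold change of FPKM + 1, Hmces knockout minus WT, with 1 point per tested gene in the 10 listed genes (purple) and the 7 further platelet-lineage lists (grey), a black bar at each list median and a shaded band from the 5th to the 95th percentile of all genes tested (-0.67 to 0.73). Pf4 at -0.92, Clec1b at -1.03, and the alpha granule genes Thbs1, Sparc and F13a1 lie outside the band.

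Markers of other lineages that a marrow sort can hold were read in the same libraries. Of 12 B, T and NK cell markers 8 were tested, with 0 called by limma, against 0.113% of all genes tested. At an unadjusted p under 0.05 there were 2, against 9.16% of all genes tested. The summed level of the 12 was 428 to 578 FPKM in knockout and 369 to 500 FPKM in WT libraries. Most of it was Nkg7, with 364 to 454 FPKM in knockout and 298 to 419 FPKM in WT libraries. The B cell genes Cd79a and Cd79b had 8.39 to 33.2 FPKM and 39.3 to 55.1 FPKM in knockout libraries, against 6.83 to 12.3 FPKM and 39.3 to 52.2 FPKM in WT libraries. All knockout libraries lay above every WT library for 2 of the markers, against 7.47% of all genes tested. These were the B cell precursor gene Vpreb1 (4.37 to 27.9 FPKM in knockout and 1.46 to 3.48 FPKM in WT libraries) and the T cell gene Cd3d (4.66 to 7.52 FPKM in knockout and 0.730 to 2.55 FPKM in WT libraries). Of 8 mast cell, basophil and eosinophil markers 6 were tested, with 0 called, against 0.113% of all genes tested. An unadjusted p under 0.05 was reached by 3, against 9.16% of all genes tested. The summed level of the 8 was 74.0 to 1014 FPKM in knockout and 34.3 to 81.9 FPKM in WT libraries. The highest sum came from Prg2, an eosinophil granule protein gene, which had 956 FPKM in knockout replicate 1, 19.3 and 22.2 FPKM in the other knockout libraries and 5.15 to 11.3 FPKM in WT libraries. The mast cell gene Fcer1a had 9.31 to 21.0 FPKM in knockout and 1.19 to 12.1 FPKM in WT libraries. Cpa3, another mast cell gene, had 11.0 to 28.0 FPKM in knockout and 16.4 to 20.3 FPKM in WT libraries (log2 fold change -0.06). Of the 6 tested markers, 5 had a positive log2 fold change and 1 a negative one. Below the filter, Cma1 was listed at 0 in every library. Gzmb was at 0 in knockout libraries and at 0 to 1.62 FPKM in WT libraries. The part of these cells in the platelet-lineage levels was not tested.

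The genes whose profile over the 6 libraries was most like that of 3 of the 10 were found by the root mean square difference of centred log2(FPKM + 1) values. For Vwf they were Tbc1d24 (0.11), Pip4k2a (0.15) and Tox (0.15), each highest in knockout replicate 2. For Pf4 they were Tmem44 (0.13), Ehd3 (0.16) and AI480653 (0.19), each lowest in knockout replicate 3 and highest in WT replicate 3. For Itga2b, whose values hardly varied, they were Psmb11 (0.03), Ahsa1 (0.05) and Arhgap26 (0.06).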

How the data were processed

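RNA was sequenced with paired-end reads of 150 bp from libraries made with 500 pg of cDNA, per the labels' protocols. The authors deposited FPKM per gene, with 1 column per library. TopHat2 2.1.1, Cufflinks 2.2.1 and the mm9 genome are listed, per the submitters' processing notes. The sources used here do not give alignment options, strand use or the gene annotation. FPKM is relative to the other transcripts of a library, and amplified fragments are not independent molecules.

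Genes with a mean of at least 1 FPKM were taken to log2(FPKM + 1), with a pseudocount of 1 that understates changes of low genes, and tested with limma 3.58.1 (R 4.3.3; mean-variance trend, genotype as the only term, two-sided). Benjamini-Hochberg adjustment covered all 11532 genes tested, and a gene was called at an adjusted p under 0.05. Depth was estimated from 1-fragment steps of low genes that have 1 annotated transcript, longer than 1500 nt, assuming fragments of 200 nt. Fragment numbers use the longest coding transcript in GENCODE M21 and cover counting error only. Promoters come from RefSeq (GRCm38.p6).

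The 10 genes, the lists and the tests were chosen with earlier results of these data known. Named from each further platelet list were the called genes and the 2 with the largest absolute log2 fold change, and from marker lists the first 3. Markers beyond these were named after their values were seen. Some genes that this rule names are not reported here. The alternatives tried were other pseudocounts, filters, scalings and variance models, a replicate block, small RNA genes left out and each library left out.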

Additional observations from a re-analysis of the deposited data

How the results depend on the processing

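No tested gene of the 10 (8 or 9 tested) or of the 75 further platelet-lineage genes (51 to 72 tested) was called under any of the 16 alternatives. Gp6 was in no test, and Vwf was not tested at a minimum mean of 5 FPKM. The number of calls over all genes was 13, and became 1 when low genes were kept, 6 with a constant prior variance, 20 with robust estimation and 32 without small RNA genes. Leaving out each library gave 2 to 19 calls, with 2 without knockout replicate 3. Deviations of same-numbered libraries correlated at 0.08, 0.01 and 0.04. Knockout replicates 1 and 3 correlated best with the WT library of their own number, and knockout replicate 2 with WT replicate 3 (0.05). Correlations this small cannot show whether the replicate numbers pair the samples. With the replicate block there were 2 calls, it changed no call of a platelet-lineage gene, and Mpo was not called (limma adjusted p = 0.180).

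The sign of Ppbp changed with a pseudocount of 0.1 (0.10) and with quantile normalization (0.011). Leaving out each library changed the sign of several small log2 fold changes, none of them called: the range was -0.71 to 0.80 for Ppbp (positive without knockout replicate 1 or 3 or WT replicate 3), -0.71 to 0.0062 for Selp (positive without knockout replicate 1), -0.11 to 0.52 for Itgb3 (negative without knockout replicate 2), -0.78 to 0.019 for Gp1bb (positive without knockout replicate 3 or WT replicate 3), -0.051 to 0.12 for Gp9 (negative without knockout replicate 2 or WT replicate 2), -0.39 to 0.048 for Treml1 (positive without WT replicate 3), -0.30 to 0.040 for Gp5, -0.46 to 0.030 for Stat5b, -0.63 to 0.093 for P2ry1 and -0.47 to 0.057 for Sdpr. The cause was not tested. Pf4 stayed negative, between -1.23 (without knockout replicate 2) and -0.51 (without knockout replicate 3) (limma adjusted p from 0.363 to 0.841), and Vwf between -0.91 and -0.07. With 3 libraries a genotype most intervals are wide, and a difference anywhere inside a gene's interval is compatible with its values.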

Other observations

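Subunits of the adhesion receptors were not read in fixed proportions, and the order of the libraries differed from ratio to ratio. Within the GPIb-IX-V complex, the ratio of Gp9 to Gp1bb was 3.99, 2.14 and 5.76 in Hmces knockout replicates 1 to 3 and 2.91, 4.0 and 1.8 in WT replicates 1 to 3. The ratio of Gp9 to Gp1ba, the gene of the subunit that binds von Willebrand factor, was 8.93, 6.93 and 16.9 in the same knockout libraries and 9.11, 10.3 and 13.5 in the same WT libraries. The ratio of Gp5 to Gp1ba was 5.21, 3.92 and 7.58 in the knockout libraries and 4.46, 6.48 and 10.2 in the WT libraries. WT replicate 3 was thus the lowest of the WT libraries for the first ratio and the highest for the others. No difference between these ratios was tested.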
